A study of Mus musculus with 24 samples.

Results

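The endothelial lining of the mouse liver was described here through 10 genes: Clec4g, Stab1, Stab2, Eng, Lyve1, Pecam1, Kdr, Cdh5, Fcgr2b and Oit3. Every probe of the array whose annotated symbol was one of these genes was taken, which gave 22 of the 45281 probes. Total RNA from the livers of C57BL/6J males was hybridised to Illumina bead arrays after conversion to biotin-labelled cRNA. The mice were 16 weeks old and had spent 10 weeks on 1 of 4 regimens, each with 6 samples. Control mice had a normal diet and drank plain water, and high-sugar mice had the same diet with a drink holding 23% w/v sugar. The group called high-fat received a high-fat diet and water, and the one called high-fat high-sugar combined that diet with the drink. The composition of the diets and of the drink is not given in the sources used here. Replicates are numbered 1 to 6 in each group, and nothing in the labels says whether they are separate animals. The p-values therefore reflect only the variation among these samples, part of which may be technical.

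Liver sinusoidal endothelial cells line the capillaries of the liver lobule. They differ from other endothelium in having open pores and no continuous basement membrane, and they clear waste molecules from the blood through scavenger, lectin and Fc receptors. Of the 10 genes, Stab1, Stab2, Lyve1, Clec4g, Fcgr2b and Oit3 belong to this specialised set, whereas Kdr, Eng, Cdh5 and Pecam1 are carried by endothelium in general. The RNA came from whole liver, so fewer endothelial cells and less RNA per endothelial cell cannot be told apart. Stab1 and Fcgr2b are also carried by macrophages, Pecam1 by several blood cells and Lyve1 by lymphatic vessels.

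Values are background-subtracted, quantile-normalised bead intensities, on which a dim probe can be negative. Each array had a noise limit, which lay between 6.50 and 6.52, and probes that passed it on 6 arrays or more were tested. Of the 22 probes, 18 were tested, and each of the 10 genes had at least 1 of them. The 4 others, 1 each of Fcgr2b, Oit3, Kdr and Pecam1, were above the noise on 0 arrays, whatever the regimen. 14 of the 22 were above it on all 24 arrays. The level of 1 probe was not set against that of another, since probes differ in how brightly they bind. Samples of 1 group correlated with each other at 0.986 to 0.995 over all tested probes and samples of different groups at 0.973 to 0.992.

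The sugar drink was followed by lower Stab2 and Eng on either diet. On the normal diet it was also followed by higher Clec4g and Oit3 and by lower signal of 1 of the Cdh5 probes, and the high-fat diet with water was followed by higher Clec4g. The calls among the 10 genes thus ran in both directions on the normal diet. Each comparison was fitted with limma on log2(intensity + 32) over all 20216 tested probes, a probe was called at a Benjamini-Hochberg adjusted p under 0.05, and every fold is of intensity plus this offset, which shrinks the change of dim probes.

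Under the normal diet, 7 of the 18 tested probes were called with the sugar drink, 4 higher and 3 lower. That is 38.9% of them, beside 28% of all tested probes, of which 14.2% were higher and 13.8% lower. The higher ones were of Clec4g, Stab1, Oit3 and Lyve1 and the lower ones of Stab2, Eng and Cdh5. The Lyve1 probe met the filter mostly through groups given the drink. Under the high-fat diet, 4 probes were called with the drink, all lower, namely Stab2, Eng and 2 probes of Stab1. They were 22.2% of the 18, beside 29.6% of all tested probes and 14.7% called lower. Of the diets compared under plain water, high-fat gave higher signal of 3 probes, of Clec4g, Stab1 and Fcgr2b, and lower signal of 0 (8 of the 18 had negative differences). They were 16.7% of the 18, beside 15.6% of all tested probes and 7.87% called higher. The count was 1 without high-fat replicate 2 and 5 without control replicate 2. Between the groups given the sugar drink, the high-fat diet gave 0 calls among the 18 in limma, beside 7.05% of all tested probes called. The interaction of drink and diet also gave 0 calls, beside 2.52% of all tested probes called. At an unadjusted p under 0.05 stood 1 of the 18 probes in the first of these comparisons and 5 in the second. The share of all tested probes at that unadjusted threshold was not counted.

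The high-fat high-sugar group differed from control in 8 of the 18 probes, 3 higher and 5 lower. That is 44.4%, beside 33.4% of all tested probes, of which 16.7% were higher and 16.7% lower. The higher ones were of Clec4g, Oit3 and Lyve1 and the lower ones of Stab2, Eng, Stab1, Cdh5 and Pecam1. The same limit on Lyve1 holds here. The comparisons of high-sugar, high-fat and high-fat high-sugar against control share the control samples, so their counts are not independent of each other. Over the 18 probes, the median log2 difference was −0.09 for the drink on the normal diet, beside −0.02 over all tested probes. It was −0.12 for the drink on the high-fat diet, beside −0.02. The corresponding medians for the high-fat diet with water were 0.06 and 0.00. Any difference between the 4 groups was called for 10 of the 18 probes by the F test, beside 49.8% of all tested probes.

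**Figure D1:**
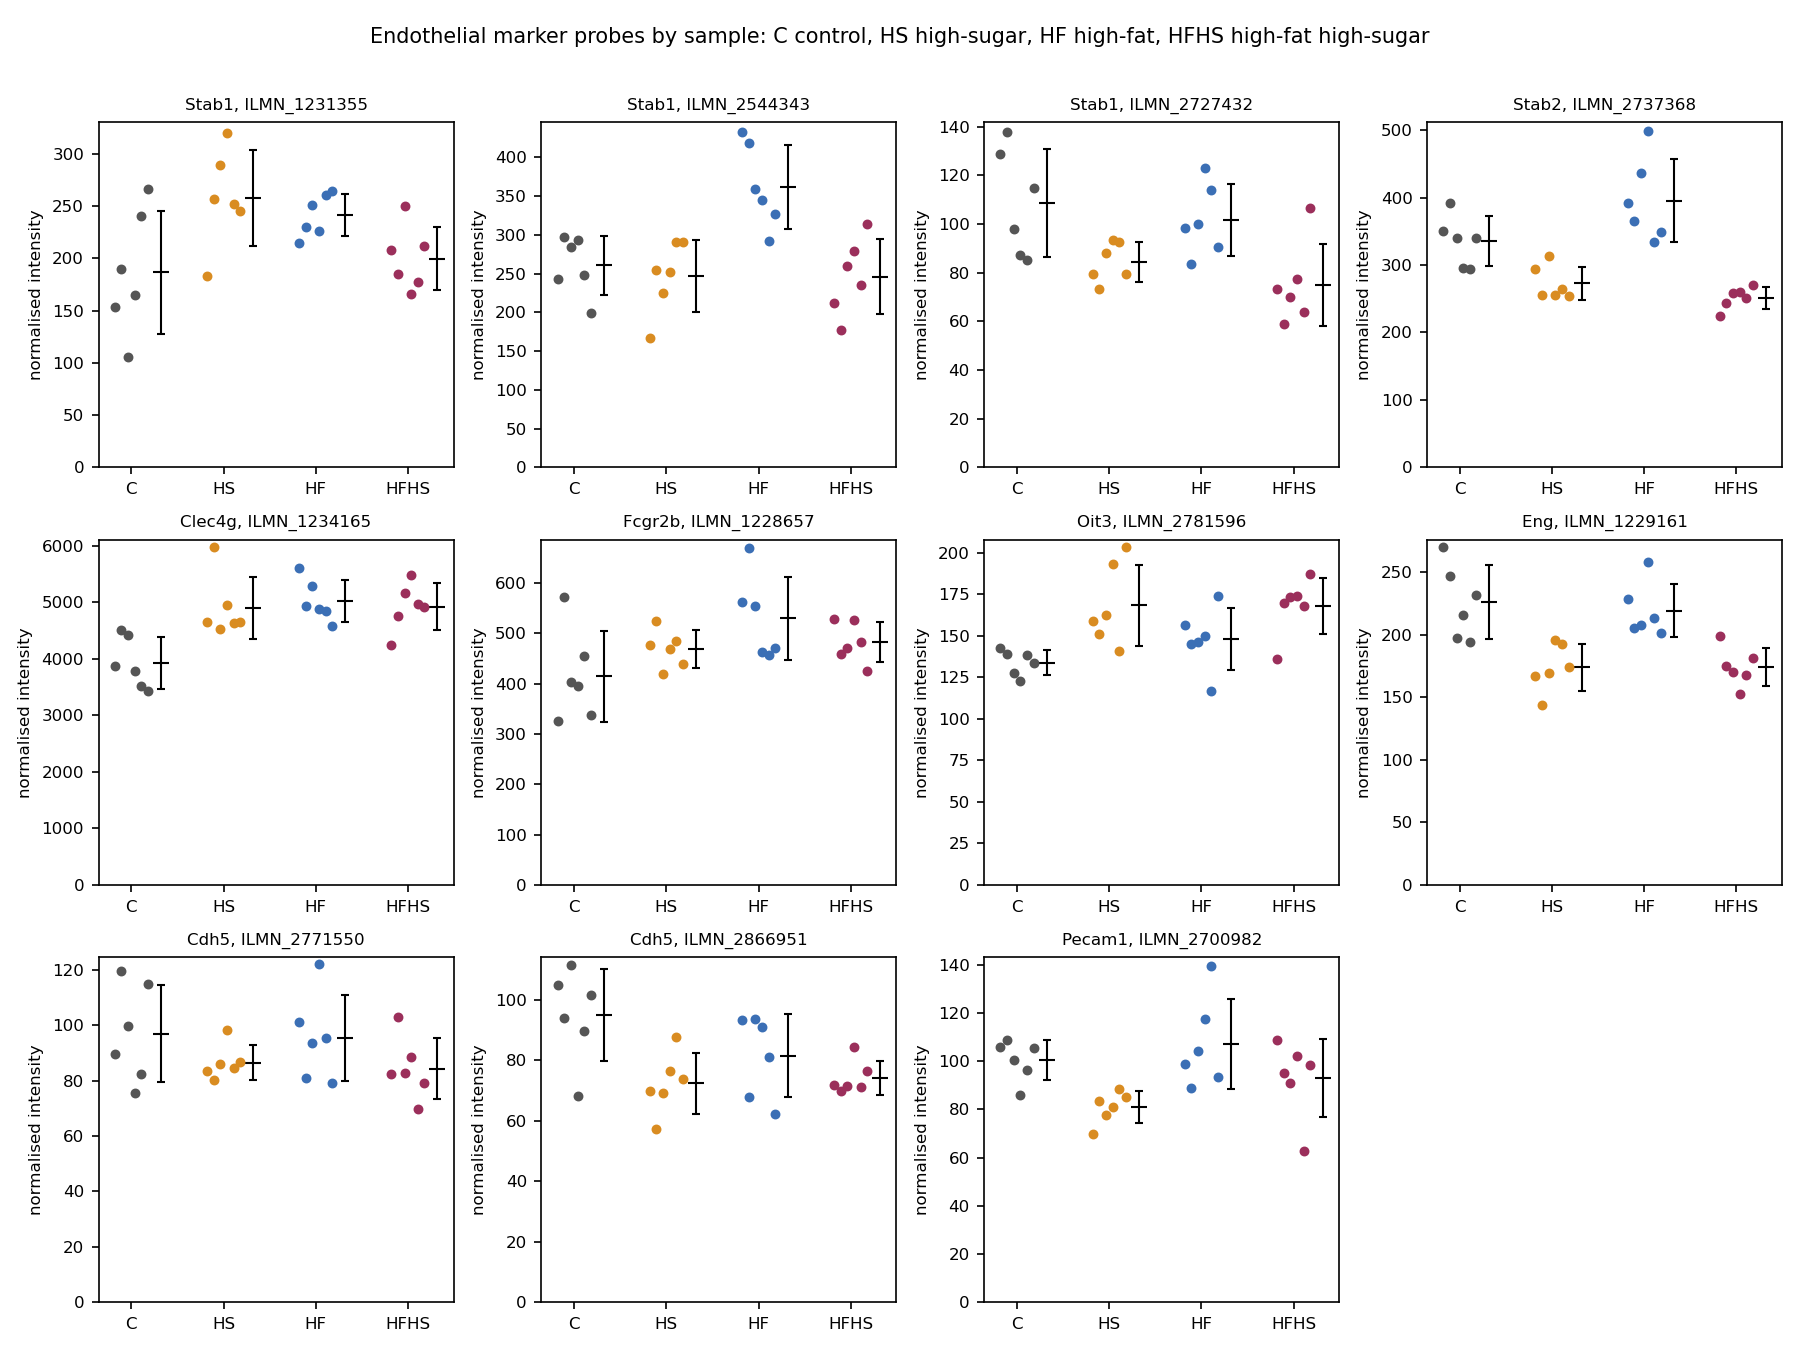
Normalised intensity (vertical axis, from 0, own scale in each panel) of the 11 brightest of the endothelial marker probes in the 24 samples, by group, with the group mean and SD drawn beside the points (n = 6). Stab2 and Eng lie lower in both groups given the sugar drink, Clec4g lies lowest in control, and the 3 Stab1 probes differ in their pattern.

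Stab2 encodes stabilin-2, the scavenger receptor with which sinusoidal endothelium removes hyaluronan from the blood. Its intensity ran from 294 through a median of 340 to 393 in control and from 254 through 260 to 313 in high-sugar. It ran from 334 through 378 to 498 in high-fat and from 224 through 255 to 270 in high-fat high-sugar. The samples given the drink were lower on either diet. On the high-fat diet the groups did not overlap, and on the normal diet 1 high-sugar sample lay within the control range. The log2 difference with the drink was −0.27 ± 0.09 (SE) on the normal diet, 1.20-fold lower (adjusted p = 0.0225, n = 6 per group), with all 6 high-sugar samples below the control mean.

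With the high-fat diet Stab2 fell by 0.58 on the log2 scale when the drink was given, 1.50-fold, with an SE of 0.09 and an adjusted p of 1.17e-05. High-fat high-sugar was also below control (log2 difference −0.37, adjusted p = 0.00165) and its samples did not overlap those of control, as for 6.02% of all tested probes. The high-fat diet with water gave 0.21, which did not pass (adjusted p = 0.0987), but it passed without control replicate 2 (0.26, adjusted p = 0.0484). The difference between the drink's effects on the 2 diets was −0.32 with an adjusted p of 0.168, and its 95% interval of −0.57 to −0.06 was not adjusted for the number of probes. The lower Stab2 on the normal diet rested in part on control replicate 2, without which the difference was −0.22 (adjusted p = 0.0620), and it also missed the threshold with no filter on dim probes (adjusted p = 0.0557).

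Eng encodes endoglin, a co-receptor for TGF-beta and BMP ligands on endothelium. Its intensity ran from 194 through a median of 224 to 270 in control and from 144 through 172 to 195 in high-sugar. It ran from 202 through 211 to 258 in high-fat and from 153 through 173 to 199 in high-fat high-sugar. The groups did not overlap on the high-fat diet, and on the normal diet the 1 highest high-sugar sample lay just above the lowest control sample. Eng fell by 0.32 on the log2 scale with the drink on the normal diet (SE 0.08, adjusted p = 0.00444) and by 0.28 on the high-fat diet (SE 0.08, adjusted p = 0.0110), 1.25-fold and 1.22-fold. High-fat against control with water gave −0.04 (95% interval −0.21 to 0.14), and the interaction was 0.04 (adjusted p = 0.899). Without overlap, 5.91% of all tested probes were lower with the drink on the high-fat diet, and Stab2 and Eng were the 2 such probes among the 18.

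Clec4g encodes a C-type lectin of sinusoidal endothelium, also called LSECtin. Its probe ILMN_1234165 ran from 3424 through a median of 3831 to 4520 in control and from 4532 through 4655 to 5985 in high-sugar. It ran from 4578 through 4905 to 5603 in high-fat and from 4245 through 4944 to 5492 in high-fat high-sugar. The control samples lay below all samples of high-sugar and of high-fat, while the 3 treated groups overlapped each other. Clec4g rose by 0.32 ± 0.08 (SE) on the log2 scale with the drink on the normal diet (adjusted p = 0.00409) and by 0.36 ± 0.08 with the high-fat diet and water (adjusted p = 0.00316), 1.25-fold and 1.28-fold. Groups did not overlap, with higher treated values, for 6.94% and 2.86% of all tested probes in these comparisons.

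This Clec4g probe gave −0.03 with the drink on the high-fat diet (95% interval −0.20 to 0.14, adjusted p = 0.820). Both treatments against control gave 0.33 (adjusted p = 0.00256), and the interaction was −0.35 (adjusted p = 0.0999). A second Clec4g probe, ILMN_1234310, was annotated to a cDNA record of another kind and lay between 0.299 and 18.4, near the noise limit. It was called in none of the 6 comparisons, and its log2 difference with the drink was −0.16 on either diet, opposite in sign on the normal diet to that of the bright probe.

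The bases before the annotated gene start are shown for Stab2 and Eng, which fell with the drink on both diets, and for Clec4g, which did not. They were taken from windows of 250 bases before the start that RefSeq's promoter table gives on GRCm38.p6, written 5′ to 3′ on the gene's own strand, and 6 of the 10 genes had such an entry. The last 96 bases of the Stab2 window and the last 44 of the Clec4g window lie inside the gene as RefSeq lists it and are not printed, while the Eng window is shown whole. Capitals mark CAGGAA, which holds the GGAA core read by ETS factors. The core GGAA alone also stands elsewhere in each of the printed sequences, Eng included, on 1 strand or the other. It was not marked or counted.
Stab2, chr10:87008039-87008192, minus strand: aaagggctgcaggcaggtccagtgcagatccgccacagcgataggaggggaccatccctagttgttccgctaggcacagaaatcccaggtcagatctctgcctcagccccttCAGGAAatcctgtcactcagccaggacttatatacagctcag
Eng, chr2:32646345-32646594, plus strand: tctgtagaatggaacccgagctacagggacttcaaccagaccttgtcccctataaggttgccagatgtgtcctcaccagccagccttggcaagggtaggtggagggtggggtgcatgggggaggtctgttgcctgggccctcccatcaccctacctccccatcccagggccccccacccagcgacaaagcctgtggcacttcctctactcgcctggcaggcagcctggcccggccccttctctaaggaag
Clec4g, chr8:3720696-3720901, minus strand: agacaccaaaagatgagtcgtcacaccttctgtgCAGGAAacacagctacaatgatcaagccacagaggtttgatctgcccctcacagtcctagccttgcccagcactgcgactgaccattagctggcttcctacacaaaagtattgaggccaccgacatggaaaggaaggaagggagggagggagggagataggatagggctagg
The letters CAGGAA occurred on 1 of the 2 strands once in the Stab2 window and once in the Clec4g window and were not found in the Eng window. They stand in 25.7% of the 32851 windows of the same length in the table. Of the other motifs searched on both strands, CCGGAA stands in 12% of all windows, AGATAA in 9.99% and GGGCGG in 32.7%, and none was found in these 3. No motif overlapped another in these windows. G and C made up 53.2% of the Stab2 window, 62.4% of the Eng window and 52% of the Clec4g window.

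Stab1 encodes stabilin-1, the other stabilin scavenger receptor. It had 3 probes, all above the noise on every array, and they gave different answers. Probe ILMN_2544343 ran from 199 through a median of 266 to 298 in control and from 167 through 254 to 291 in high-sugar. It ran from 292 through 352 to 432 in high-fat and from 177 through 248 to 314 in high-fat high-sugar. High-fat was the highest of the 4 groups, with its lowest sample inside the control and high-fat high-sugar ranges. By this probe Stab1 rose by 0.43 ± 0.12 with the high-fat diet and water (adjusted p = 0.0184) and fell by 0.51 (SE 0.12, adjusted p = 0.00257) when the drink was added to it.

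Probe ILMN_2727432 had means of 109 ± 22.0 (SD) in control, 84.4 ± 8.07 in high-sugar, 102 ± 14.7 in high-fat and 75.0 ± 16.8 in high-fat high-sugar. By it Stab1 also fell with the drink on the high-fat diet, by 0.33 (SE 0.10, adjusted p = 0.0170), and in high-fat high-sugar against control, by 0.39 (adjusted p = 0.00393). On the normal diet its difference was −0.26 (adjusted p = 0.0566). That difference passed without control replicate 4 or 5 or high-fat high-sugar replicate 6 (adjusted p 0.0286 to 0.0369). The probe annotated to a cDNA record, ILMN_1231355, had means of 187 ± 59.0 in control, 257 ± 46.0 in high-sugar, 241 ± 20.1 in high-fat and 200 ± 30.4 in high-fat high-sugar. Its control samples spread from 106 to 266, more widely than those of the other groups. By this probe Stab1 rose by 0.43 ± 0.14 with the drink on the normal diet (adjusted p = 0.0180), and on the high-fat diet the difference was −0.24 (adjusted p = 0.189). Its interaction, −0.68 ± 0.19, was the lowest-p interaction among the 18 probes and did not pass (adjusted p = 0.0555).

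The call on the normal diet for ILMN_1231355 was lost without control replicate 3 (0.31, adjusted p = 0.0645) or without high-sugar replicate 4 (0.38, adjusted p = 0.0524). Its interaction passed without control replicate 5 or 6, without high-sugar replicate 1 or without high-fat high-sugar replicate 3 (−0.74 to −0.78, adjusted p 0.0246 to 0.0378). The rise of ILMN_2544343 on the high-fat diet was lost without control replicate 6 (0.36, adjusted p = 0.0576) or without high-fat replicate 2 (0.39, adjusted p = 0.0501). The difference in response on the normal diet between ILMN_1231355 and ILMN_2727432 was 0.70 on the log2 scale (exact permutation test over samples, two-sided p = 0.0108 of 924 arrangements). That was 1 of 24 such tests of 2 probes of 1 gene, over 6 pairs in 4 comparisons, and the lowest of the 24 adjusted p-values was 0.229.

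Oit3, a zona pellucida domain gene used as a marker of sinusoidal endothelium, was read by probe ILMN_2781596. It ran from 123 through a median of 136 to 143 in control and from 141 through 161 to 204 in high-sugar. It ran from 117 through 148 to 174 in high-fat and from 136 through 172 to 187 in high-fat high-sugar. 5 of the 6 high-sugar samples lay above every control sample. Oit3 rose by 0.26 ± 0.09 with the drink on the normal diet (adjusted p = 0.0203) and by 0.27 in high-fat high-sugar against control (adjusted p = 0.0162). The drink gave 0.15 on the high-fat diet (adjusted p = 0.180). Without high-sugar replicate 4 or 6 the difference on the normal diet was 0.23 or 0.22 (adjusted p 0.0575 and 0.0635).

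Lyve1 encodes a hyaluronan receptor. Its only probe lay near the noise limit, above it on 1 control, 3 high-sugar, 1 high-fat and 4 high-fat high-sugar arrays. Mean intensities were 0.515 ± 4.15 (SD) in control, 7.50 ± 3.90 in high-sugar, 3.60 ± 3.27 in high-fat and 8.20 ± 3.50 in high-fat high-sugar. The groups overlapped in every comparison. The higher signal with the drink on the normal diet passed the test (adjusted p = 0.00928), as did high-fat high-sugar against control (adjusted p = 0.00379). Most arrays that brought the probe through the filter of 6 came from groups given the drink. These calls are therefore not independent of that filter, and a filter of 12 arrays left the probe out. No fold is given because the control mean was under the noise limit, and with intensities under 16 set to 16 both differences were 0. The summed intensity of 3 genes of lymphatic endothelium, which also carries Lyve1, had medians of 462 in control, 447 in high-sugar, 582 in high-fat and 639 in high-fat high-sugar. Of these 3 genes Prox1, which hepatocytes also carry, was higher in high-fat high-sugar than in control (adjusted p = 0.00939), beside 18.9% of all genes called higher, and the part of lymphatic RNA in the Lyve1 values was not tested.

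Fcgr2b encodes the inhibitory Fc gamma receptor, which takes up immune complexes in sinusoidal endothelium. Its bright probe, ILMN_1228657, ran from 325 through a median of 399 to 573 in control and from 419 through 473 to 525 in high-sugar. It ran from 458 through 513 to 669 in high-fat and from 425 through 477 to 529 in high-fat high-sugar. Control had the lowest samples and also 1 high one, replicate 2, so that the groups overlapped. It rose by 0.34 ± 0.11 with the high-fat diet and water (adjusted p = 0.0274). The call was lost without control replicate 1 or 6 or high-fat replicate 1, 2 or 3 (0.27 to 0.33, adjusted p 0.0531 to 0.0894) and with no filter on dim probes (adjusted p = 0.0594). With the drink on the normal diet it gave 0.19 (adjusted p = 0.204), which became 0.28 without control replicate 2 (adjusted p = 0.0341).

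A second Fcgr2b probe above the noise on all arrays, ILMN_3102376, had means of 42.3 ± 15.3 (SD) in control, 54.0 ± 6.60 in high-sugar, 51.1 ± 10.3 in high-fat and 44.5 ± 5.77 in high-fat high-sugar. It was called in none of the comparisons. The drink gave 0.23 for it on the normal diet (adjusted p = 0.0937), and 0.33 without control replicate 2 (adjusted p = 0.00960). The high-fat diet with water gave 0.18 (adjusted p = 0.265), and 0.27 without control replicate 2 (adjusted p = 0.0432). The other 2 tested Fcgr2b probes had group means of 3.58 to 8.83, at or near the noise limit, and were not called.

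Kdr encodes VEGF receptor 2, the main receptor through which VEGF acts on endothelium. Its tested probe had means of 12.4 ± 3.40 (SD) in control, 11.5 ± 1.68 in high-sugar, 11.9 ± 2.35 in high-fat and 12.8 ± 3.17 in high-fat high-sugar. All 24 samples were above the noise limit and the groups overlapped throughout. No comparison was called, and the F test over the 4 groups had an adjusted p of 0.933. The 95% interval of the log2 difference with the drink was −0.15 to 0.09 on the normal diet and −0.10 to 0.15 on the high-fat diet, on the scale with the offset, which shrinks the change of a probe this dim.

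Cdh5 encodes VE-cadherin, which holds endothelial cells together at their junctions. Its probe ILMN_2866951 ran from 68.2 through a median of 97.6 to 111 in control and from 57.4 through 71.8 to 87.8 in high-sugar. It ran from 62.1 through 86.0 to 93.7 in high-fat and from 69.8 through 71.6 to 84.4 in high-fat high-sugar. Control replicate 4 was the low sample of its group, and the groups overlapped. By this probe Cdh5 fell by 0.28 with the drink on the normal diet (SE 0.09, adjusted p = 0.0214) and by 0.25 in high-fat high-sugar against control (adjusted p = 0.0331). The drink gave −0.09 on the high-fat diet (adjusted p = 0.493).

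The other Cdh5 probe, ILMN_2771550, had means of 96.9 ± 17.6 (SD) in control, 86.5 ± 6.22 in high-sugar, 95.3 ± 15.6 in high-fat and 84.2 ± 11.0 in high-fat high-sugar. Its difference with the drink on the normal diet was −0.11, with a 95% interval of −0.30 to 0.07 (adjusted p = 0.386). The call of ILMN_2866951 on the normal diet was lost without control replicate 3 (−0.24, adjusted p = 0.0590) or high-sugar replicate 2 (−0.23, adjusted p = 0.0630). Its call against control in high-fat high-sugar was lost without any of 7 samples (−0.21 to −0.24, adjusted p 0.0546 to 0.0857), with cyclic loess (−0.22, adjusted p = 0.0622) and with no filter on dim probes (adjusted p = 0.0622).

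Pecam1 encodes CD31, an adhesion molecule of endothelial junctions. Its probe ILMN_2700982 ran from 86.2 through a median of 103 to 109 in control and from 69.9 through 82.1 to 88.6 in high-sugar. It ran from 89.0 through 102 to 139 in high-fat and from 62.6 through 96.8 to 109 in high-fat high-sugar. The high-sugar samples were low, and 1 of them lay above the lowest control sample. The log2 difference with the drink on the normal diet was −0.23 ± 0.09 and did not pass (adjusted p = 0.0572), and it passed without control replicate 4 (−0.26, adjusted p = 0.0379). It also passed without high-fat replicate 5 (adjusted p = 0.0409), without high-fat high-sugar replicate 5 (0.0285) and with no variance trend (0.0476). The dimmer probe ILMN_3147074 had means of 33.2 ± 8.58 (SD) in control and 23.9 ± 2.53 in high-fat high-sugar. By it Pecam1 fell by 0.21 between these groups (SE 0.08, adjusted p = 0.0486). This call was lost in 16 of the 24 fits that left out 1 sample (−0.18 to −0.22), with the highest adjusted p, 0.116, without control replicate 6. It was also lost in 5 of 9 other settings, namely cyclic loess (adjusted p = 0.0777), the floor (0.0578), no filter on dim probes (0.0831), an offset of 16 (0.0503) and the replicate block (0.0596). Platelets also carry Pecam1. The summed intensity of 3 platelet genes ran from 37.9 to 63.4 in control, from 23.8 to 40.0 in high-sugar, from 19.2 to 53.2 in high-fat and from 25.0 to 40.7 in high-fat high-sugar. The median of this sum was 55.4 in control, 33.9 in high-sugar, 34.1 in high-fat and 30.4 in high-fat high-sugar. Pecam1 ILMN_2700982 averaged 101, 81.0, 107 and 93.1 in the same order. Of the 3 platelet genes, Itga2b was called lower than control in high-sugar, high-fat and high-fat high-sugar, and 2 were not called. The shares of all genes called lower were 13.9%, 8.51% and 16.3%. Ppbp, a platelet chemokine, was under the noise limit in every group, and the part of platelet RNA in the Pecam1 values was not tested.

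**Figure D2:**
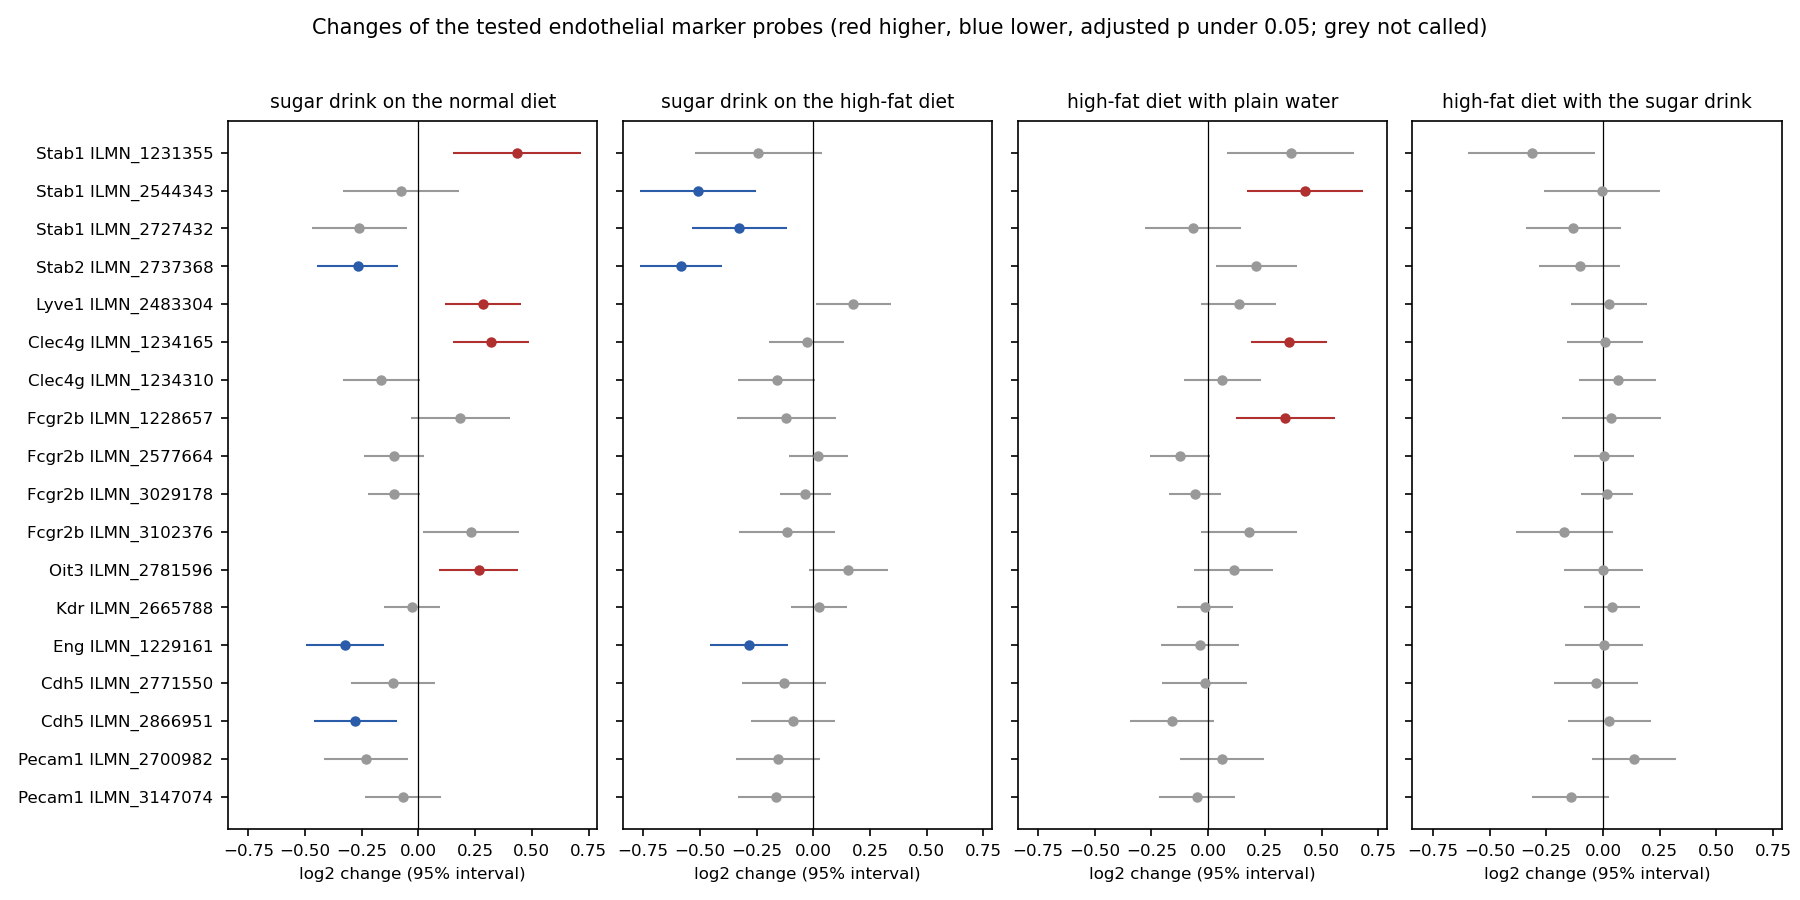
Log2 difference of each of the 18 tested probes (rows) in the 4 comparisons of drink and diet (panels), with its 95% interval; red points were called higher, blue ones lower, and grey ones were not called. With the drink the 4 coloured points of the high-fat diet lie to the left of 0, and of those of the normal diet 4 lie to the right and 3 to the left.

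Of the 22 probes, 17 were annotated to RefSeq mRNA records and 15 of these were tested, beside 49.9% of the 30454 such probes on the array. The other 5, of Stab1, Clec4g, Fcgr2b, Kdr and Pecam1, were annotated to cDNA records, and 3 of these were tested, beside 37.4% of 3419. Where 2 probes of 1 gene were both bright, their deviations from the group means across the 24 samples were compared. Over 6 such pairs Pearson's r ran from −0.10 to 0.64 with a median of 0.20. The pair of Fcgr2b reached 0.64 (Spearman's rho 0.34) and that of Cdh5 0.55, while the 3 pairs of Stab1 probes gave −0.10, 0.12 and 0.18. Over 85 pairs of probes of different genes r ran from −0.38 to 0.74 with a median of 0.09, and 31 were below 0. The highest was that of Stab2 with Pecam1 ILMN_3147074, with r at 0.74 and rho at 0.73. Stab1 ILMN_2727432 had r at 0.64 with Eng, 0.55 with Stab2 and 0.52 with Cdh5 ILMN_2866951. Stab1 ILMN_2544343 gave −0.03, 0.05 and 0.12 with the same probes, and 0.48 with Clec4g and 0.55 with Fcgr2b ILMN_3102376. Oit3 had no r above 0.28 with a bright probe of any other marker gene. These correlations describe samples that share an array and a normalisation, and no p-value is given for them.

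**Figure D3:**
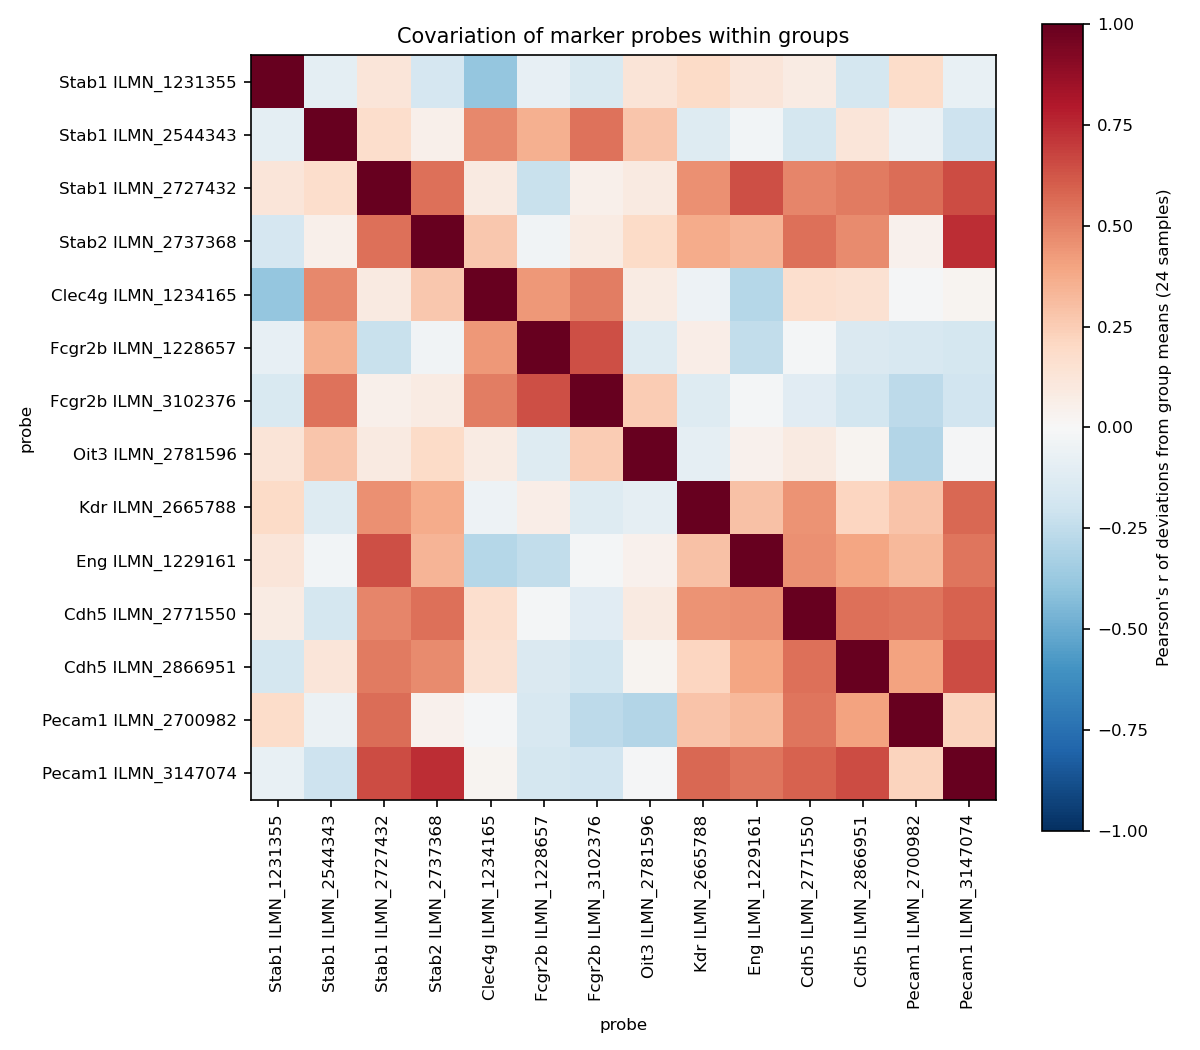
Pearson correlation, over 24 samples, of the deviations from the group means for the 14 probes above the noise on every array. Probes of 1 gene stand next to each other; the pairs of Stab1 probes lie near 0, at −0.10 to 0.18, and the highest value off the diagonal is that of Stab2 with Pecam1, 0.74.

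Among the 11115 genes tested, the genes whose deviations followed each marker most closely were named by rank alone. For Stab2 the closest was Dnase1l3, a secreted DNase, with r at 0.79 and rho at 0.79, and 0.74 without the 2 samples farthest from the median. For Stab1, by its brightest probe, it was Nt5dc2 with r at 0.84 and rho at 0.80. For Eng it was Hid1 (r 0.81, rho 0.77), for Fcgr2b Tom1 (r 0.83, rho 0.86) and for Clec4g Jtb (r 0.82, rho 0.66). Kit, a receptor tyrosine kinase, came first both for Cdh5 (r 0.81, rho 0.79) and for Pecam1 (r 0.73, rho 0.73). These are the highest of many values over 24 samples and are given as a description.

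Other genes of sinusoidal endothelium moved in both directions with the drink on the normal diet. Of 16 listed genes, 13 were tested by their brightest probe. With the drink on the normal diet 2 were higher (Dnase1l3 and F8) and 3 lower (Gpr182, Wnt9b and Ntn4), beside 14.7% and 13.9% of all genes. With the high-fat diet 1 was higher (Wnt2) and 2 were lower (Gpr182 and Ehd3), beside 16.4% and 13.8%. The Wnt2 mean was above the noise limit only in high-fat high-sugar, so this call may not be independent of the filter on dim probes. The 5 calls on the normal diet became 2 or 3 without control replicate 1, 2, 3 or 6 or high-sugar replicate 4 or 6. Gpr182, an atypical chemokine receptor of sinusoidal endothelium, had mean intensities of 330 in control, 273 in high-sugar, 415 in high-fat and 219 in high-fat high-sugar. It fell by 0.83 with the drink on the high-fat diet (SE 0.08, adjusted p = 1.74e-08) and by 0.24 on the normal diet (adjusted p = 0.0274), and its interaction of −0.60 passed (adjusted p = 0.00437). It rose by 0.31 with the high-fat diet and water (adjusted p = 0.00767). The fall on the normal diet was lost without control replicate 1, 2 or 3 or high-sugar replicate 4 or 6 (−0.20 to −0.23, adjusted p 0.0533 to 0.0738).

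Ehd3, a membrane-trafficking gene, averaged 552 in control, 465 in high-sugar, 502 in high-fat and 331 in high-fat high-sugar, and fell by 0.56 with the drink on the high-fat diet (SE 0.12, adjusted p = 0.000659). Dnase1l3 went the other way, from 419 in control to 602 in high-sugar, a rise of 0.50 ± 0.11 (adjusted p = 0.00125), although it followed Stab2 within the groups. Its difference on the high-fat diet was 0.26 (adjusted p = 0.0726), and it passed without high-fat high-sugar replicate 1 (0.33, adjusted p = 0.0270). Wnt2, an endothelial ligand for neighbouring hepatocytes, had means under the noise limit in 3 groups, so its call is given without a fold.

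Of 21 genes of endothelium in general, 17 were tested, and the drink gave 2 higher and 3 lower on the normal diet, beside 14.7% and 13.9% of all genes. On the high-fat diet it again gave 2 higher and 3 lower, beside 16.4% and 13.8%. The count of 5 on the high-fat diet became 3 without high-fat replicate 1 or 4 or high-fat high-sugar replicate 4 or 5. Flt1, VEGF receptor 1, rose with the drink on both diets, by 0.30 ± 0.09 (adjusted p = 0.00988) and 0.44 ± 0.09 (adjusted p = 0.000266). Tie1, an endothelial receptor tyrosine kinase, fell on both, by 0.45 (SE 0.11, adjusted p = 0.00430) and 0.33 (SE 0.11, adjusted p = 0.0282). The second of these was lost without any of 5 samples (−0.27 to −0.32, adjusted p 0.0525 to 0.0803), as without high-fat replicate 4. Nos3, endothelial nitric oxide synthase, fell by 0.40 on the normal diet (SE 0.09, adjusted p = 0.00172) from a mean of 65.3 to 41.1, with −0.14 on the high-fat diet (adjusted p = 0.291).

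Among ligands and mediators of VEGF and TGF-beta signalling, 10 of 17 listed genes were tested. With the drink on the normal diet 2 were higher and 3 lower, beside 14.7% and 13.9% of all genes, and on the high-fat diet 2 were higher, beside 16.4%. Vegfc was 1 of the 2 higher genes on each diet. Its means were above the noise limit only in the groups given the drink, so its calls may not be independent of the filter on dim probes. The 5 calls on the normal diet became 3 without control replicate 2. Vegfa, the ligand of Kdr and Flt1, averaged 321 in control, 257 in high-sugar, 233 in high-fat and 226 in high-fat high-sugar. It fell by 0.29 with the drink on the normal diet (SE 0.08, adjusted p = 0.0103) and by 0.41 with the high-fat diet and water (SE 0.08, adjusted p = 0.00105). Tgfbr2, a TGF-beta receptor, rose by 0.35 ± 0.10 with the drink on the high-fat diet (adjusted p = 0.00964). Of 3 tested flow-response genes, 2 were higher in the same comparison (Klf2 and Klf4), beside 16.4% of all genes. Klf2 rose by 0.41 ± 0.12 (adjusted p = 0.00888). Klf4 had a mean above the noise limit only in high-fat high-sugar, so its call may not be independent of the filter on dim probes.

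Among 7 tested genes of large vessels or activated endothelium, the drink on the normal diet gave 1 higher (Plvap) and 2 lower (Vwf and Edn1), beside 14.7% and 13.9% of all genes. Edn1, endothelin-1, fell by 0.46 (SE 0.13, adjusted p = 0.0105), from a mean of 46.5 to 25.6. Without control replicate 2 or high-sugar replicate 2 the list gave 1 call. The high-fat diet with water gave 2 higher, Plvap (0.33 ± 0.09, adjusted p = 0.0144) and the adhesion molecule Icam1 (0.44 ± 0.13, adjusted p = 0.0218), beside 8.58% of all genes. Icam1 was not called without high-fat replicate 1 (0.39, adjusted p = 0.0547) or 3 (0.36, adjusted p = 0.0734).

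**Figure D4:**
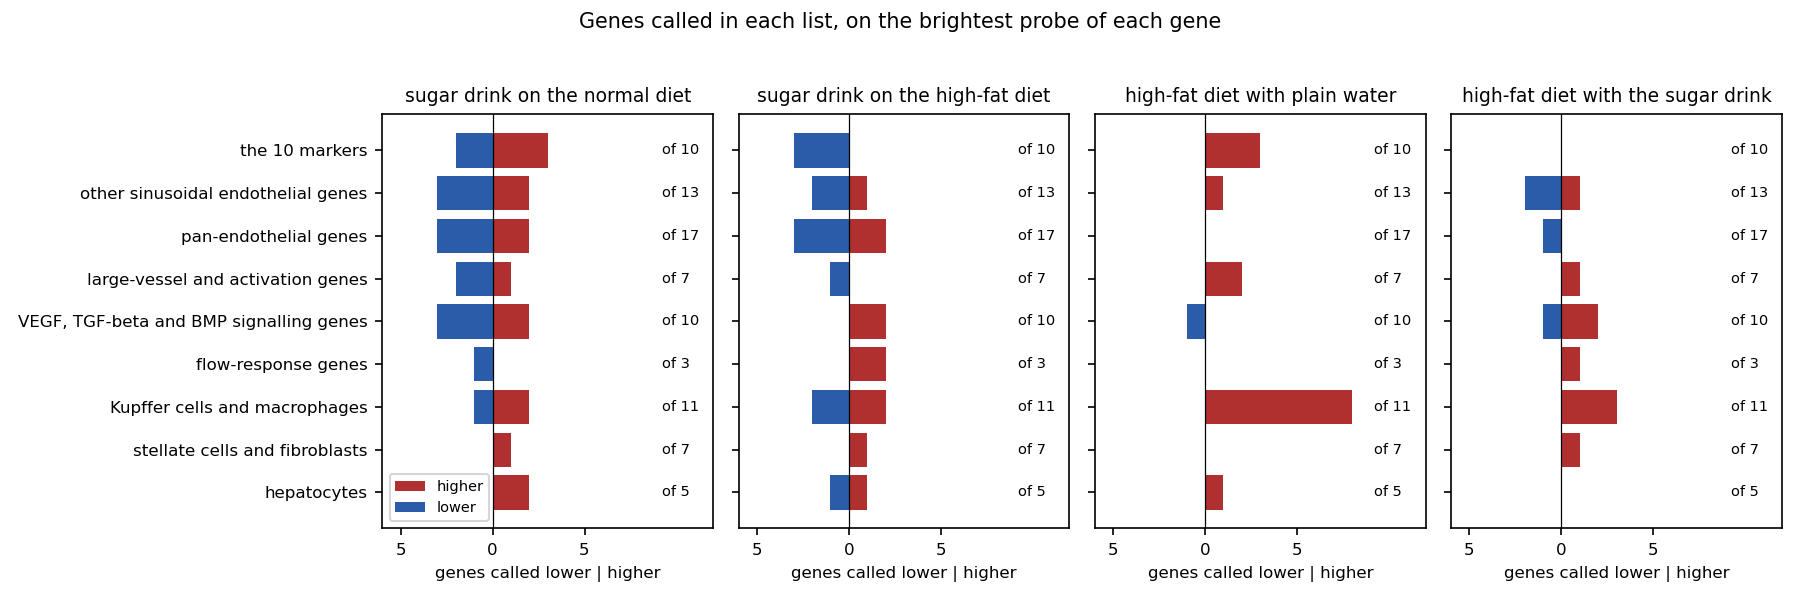
Number of genes called higher and lower (bars to the right and left of 0) in each comparison, for the 10 markers and for other lists, on the brightest probe of each gene. With the high-fat diet and water, macrophage genes show 8 higher of 11 tested and the markers 3 higher of 10, beside 8.58% of all genes. The difference between the lists was not tested.

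Macrophage genes rose with the high-fat diet and water, beside the calls of Stab1, Fcgr2b and Clec4g. Of 11 tested genes of Kupffer cells and macrophages, 8 rose on the high-fat diet without the drink and 0 fell, beside 8.58% and 8.51% of all genes. With the drink, the same diet gave 3 higher of the 11, beside 4.17% of all genes, and the difference between these counts was not tested. Their summed intensity ran from 4820 through a median of 5233 to 5384 in control and from 5815 through 7883 to 8881 in high-fat. It ran from 4139 through 5509 to 7079 in high-sugar and from 6163 through 7799 to 10220 in high-fat high-sugar. Adgre1 and Mpeg1 had means under the noise limit in control and Timd4 in high-fat. C1qc, a complement subunit made by macrophages, rose by 0.69 ± 0.13 (adjusted p = 0.000406). C1qa was likewise called higher with the high-fat diet, both under water and under the drink. With the drink on the normal diet 2 of the 11 were higher (Adgre1 and Mpeg1) and 1 lower (C1qa), beside 14.7% and 13.9% of all genes. On the high-fat diet the drink gave 2 higher (Mpeg1 and Lyz2) and 2 lower (Csf1r and C1qa), beside 16.4% and 13.8%. C1qa fell by 0.37 (adjusted p = 0.0115) on the normal diet and by 0.47 (adjusted p = 0.00146) on the high-fat diet. The part of macrophage RNA in the calls of Stab1 and Fcgr2b was not tested. Summed intensities of 13 other sinusoidal genes had medians of 2292 in control, 2216 in high-sugar, 2209 in high-fat and 1922 in high-fat high-sugar, with overlapping ranges, and those of 17 general endothelial genes had medians of 4189 to 4460.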

How the data were processed

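Liver RNA of 24 samples in 4 groups of 6 was measured on Illumina bead arrays, and the authors made the values with GenomeStudio 2011.1, per the submitters' processing notes. The deposited unit is a linear intensity for each of 45281 probes. The values were background-subtracted (37.7% were negative) and quantile-normalised (sorted columns differed by at most 0.231), as read from the values. A non-normalised table was not used here, because its 24 sample columns matched no sample's labels. The planned start from that table was therefore replaced by these intensities.

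An array's noise limit was 1.645 times the SD of its negative values mirrored at 0. The 20216 probes above it on at least 6 arrays were fitted with limma 3.58.1 in R 4.3.3, on log2(intensity + 32), with 4 group means, a variance trend and 6 contrasts. P-values were Benjamini-Hochberg adjusted over these probes in each contrast. Probe symbols came from the platform annotation, updated by gene ID for 34807 probes (34885 had 1 symbol, 18 several and 10378 none). Lists used the brightest tested probe per gene. The plan was to give values of the 4 genes with the lowest F test p in each list. Not all of these are given, and some genes outside that choice are named.

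The number of arrays limits the precision. On simulated data for the drink on the normal diet (20216 probes), 79 of 100 probes changed by 0.5 and 99 of 100 changed by 1 on the log2 scale were recovered, with 8 false calls. The changed probes were drawn from those with a mean intensity over 100. The rates therefore do not cover dimmer marker probes, and changes smaller than 0.5 were not simulated. Other offsets, a floor, other filters, cyclic loess, array weights, no variance trend, 1 probe per gene, a replicate block and leaving out each sample were tried. Same-numbered samples deviated together with mean r of −0.07 to 0.13, so the numbers were not taken as pairs. The genes and lists were chosen with earlier results of these data known. Tests between probes of 1 gene and the comparison of annotation records were added after the values were seen.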

Additional observations from a re-analysis of the deposited data

Results flagged for a closer look

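4 of the 72 sets of 6 samples examined (18 tested probes in 4 groups) held 1 sample farther from the others than Dixon's critical value allows, and chance flags about 1 set in 20. Clec4g (ILMN_1234165) in high-sugar replicate 2 had an intensity of 5985, while the other 5 high-sugar samples lay between 4532 and 4954. Oit3 (ILMN_2781596) in high-fat high-sugar replicate 1 had 136, while the other 5 lay between 168 and 187. Cdh5 (ILMN_2771550) in high-sugar replicate 4 had 98.3, while the others lay between 80.1 and 86.5. Pecam1 (ILMN_2700982) in high-fat high-sugar replicate 5 had 62.6, while the others lay between 91.1 and 109. The 4 samples carry 4 different replicate numbers and come from 2 groups. Clec4g with the drink on the normal diet, and Oit3 in high-fat high-sugar against control, passed the test without the sample named.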

How the results depend on the processing

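Of 22 differences of marker probes that passed the test, 12 passed under every alternative, and none reversed in sign. Of 86 that did not pass, 76 stayed so throughout. The interaction count became 1 with array weights, through Stab1 ILMN_1231355 (−0.75, adjusted p = 0.0299). With 1 probe per gene, 5 of 10 probes differed between high-fat high-sugar and control in place of 8 of 18. The calls of Stab1, Cdh5 and Pecam1 were on dimmer probes, and the brightest probe of each of these genes was not called. Leaving out 1 sample at a time, the count of called probes ran from 5 to 9 for the drink on the normal diet, from 4 to 5 for the drink on the high-fat diet, from 1 (without high-fat replicate 2) to 5 (without control replicate 2) for the high-fat diet with water, stayed at 0 for the high-fat diet with the drink, ran from 0 to 1 for the interaction, from 6 to 8 for both treatments and from 8 to 11 for the F test. With the replicate number as a block the counts were 7, 4, 3, 0, 0 and 7, and 9 for the F test; the number is not shown to pair the samples. Over all probes, the interaction's 509 calls became 329 with the floor and 275 with 1 probe per gene. With 1 probe per gene all calls fell from 5658 to 3209, 5980 to 3402, 3154 to 1987, 1425 to 875 and 6757 to 3949 in the other contrasts and from 10074 to 5826 for the F test. Without high-fat high-sugar replicate 1, the 1425 became 912. The interaction's 509 became 295 without high-fat high-sugar replicate 4, 311, 332 or 336 without high-sugar replicate 2, 3 or 5, and 316 or 318 without control replicate 1 or 3. The causes were not tested, beyond the smaller number of probes. Of 62 passing differences among 22 genes of the other lists, taken by the lowest F test p, 38 passed under every alternative and none reversed. With the floor, macrophage genes called with the high-fat diet and water numbered 5 in place of 8.

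The depth of bead sampling is not given, and the dim probes of Lyve1, Kdr, Clec4g and Fcgr2b limit what can be said of them. The offset shrinks their changes, and a single probe decided Stab2, Eng, Lyve1, Kdr and Oit3.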
